A study of Mus musculus with 6 samples.

Results

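The transcripts described here encode 10 receptors and adaptors that detect RNA or DNA inside the cell, in the cytosol or in endosomes. They were taken by symbol, for their role, from a table of 35976 genes, with earlier results of these data known. All 10 symbols are in the table, and 9 of them were among the 10636 genes with enough counts to be tested. The tenth, Tlr9, was not tested. The cells were RAW264.7, a mouse macrophage-like line established from a virus-induced tumour, and all libraries came from that single line. In the control group (3 libraries) the cells had no treatment, and in the itaconate group (3 libraries) they were exposed to itaconate for 24 h. Itaconate is a small organic acid that macrophages produce from a citric acid cycle intermediate once they are activated. Its dose, its chemical form and any vehicle are not given in the labels. Polyadenylated RNA was counted by 3′ sequencing, at 5202626 to 6098934 counts per library. Separate cultures are not named for the replicates, so p-values measure the spread between these libraries, which may be technical.

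Nucleic acid sensors tell a cell that viral or misplaced RNA or DNA is present. RIG-I-like receptors bind double-stranded RNA in the cytosol and pass the signal through MAVS on the mitochondrial surface. cGAS makes a cyclic dinucleotide on cytosolic DNA, which STING at the endoplasmic reticulum receives, ZBP1 binds left-handed (Z-form) nucleic acid, and Toll-like receptors 3, 7 and 9 read RNA or DNA in endosomes. These routes converge on kinases and transcription factors that switch on type I interferon and inflammatory cytokines, and several of the sensors are themselves induced by interferon.

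The labelled cell type was checked first. All 8 macrophage markers in the table were detected and tested. Their summed level was 6575 to 7800 CPM (read counts scaled to a common library size by TMM) in the control libraries and 5234 to 5612 CPM in the itaconate libraries, and the part of this in the results that follow was not tested. In such bulk RNA of a single line, fewer cells with a given transcript and less of it per cell cannot be told apart. Cd68 was at 1095 ± 34.7 CPM for control and 1346 ± 53.6 CPM for itaconate (SD, n = 3). Csf1r, the M-CSF receptor, was at 3693 ± 386.9 and 1837 ± 20.4 CPM, and its exons overlap Hmgxb3 on the opposite strand. Csf1r fell by 1.01 on the log2 scale. Itgam, Spi1 and Fcgr1 also fell, at log2 fold changes of -0.54, -0.34 and -0.53. Itgam shares 30.1% of its 3′-end stretches with Gm49368, and their exons overlap on the same strand over 3450 of 4926 bases of Itgam. The count of Itgam is thus uncertain. The Fcgr1 call was lost without control replicate 3 (edgeR adjusted p = 0.0549). Cd68 rose (0.30). Adgre1 (-0.17), Lyz2 (-0.18) and Mertk (0.31) were not called, though Lyz2 was called lower without control replicate 3 (adjusted p = 0.00809). Markers of other cells were at or near 0, with Cd3e, Cd8a and Ncr1 at 0 counts throughout. The summed level per library was 0 to 1.05 CPM for 5 B cell markers, 1.62 to 7.47 CPM for 6 T and NK cell markers (mostly Lck), 1.05 to 2.85 CPM for 5 neutrophil markers, 0.565 to 2.10 CPM for 6 fibroblast markers and 0 to 1.12 CPM for 5 epithelial markers. Of 6 plasmacytoid dendritic cell markers, Siglech, Klk1 and Ly6d had 0 counts in every library, while Tcf4 (log2 fold change -0.48) and Cox6a2 (1.13) were present and changed in opposite directions.

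Itaconate-exposed cells had less transcript of 7 of the 9 tested sensors: Ddx58, Ifih1, Dhx58, Tmem173, Zbp1, Tlr3 and Tlr7. Zbp1 fell most, to 14.9% of its control level, and Tlr7 least, to 79.0%. Mavs and Mb21d1 were not called. Calls are genes whose adjusted p in edgeR's quasi-likelihood test was under 0.05, and 11.2% of all tested genes were called lower and 10.7% higher. No sensor was called higher by edgeR, DESeq2 or limma-voom (0 in each), and 0 had an unadjusted p under 0.05 in that direction. For the same 7 sensors every itaconate library lay below every control library, a separation in that direction seen in 17.9% of all tested genes. The median log2 fold change of the 9 was -1.08, against -0.01 over all tested genes. The 10 genes together took 395.1 to 411.2 CPM of the unscaled library total in control and 260.5 to 286 in itaconate libraries, a sum in which Tlr7 weighs most.

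**Figure D1:**
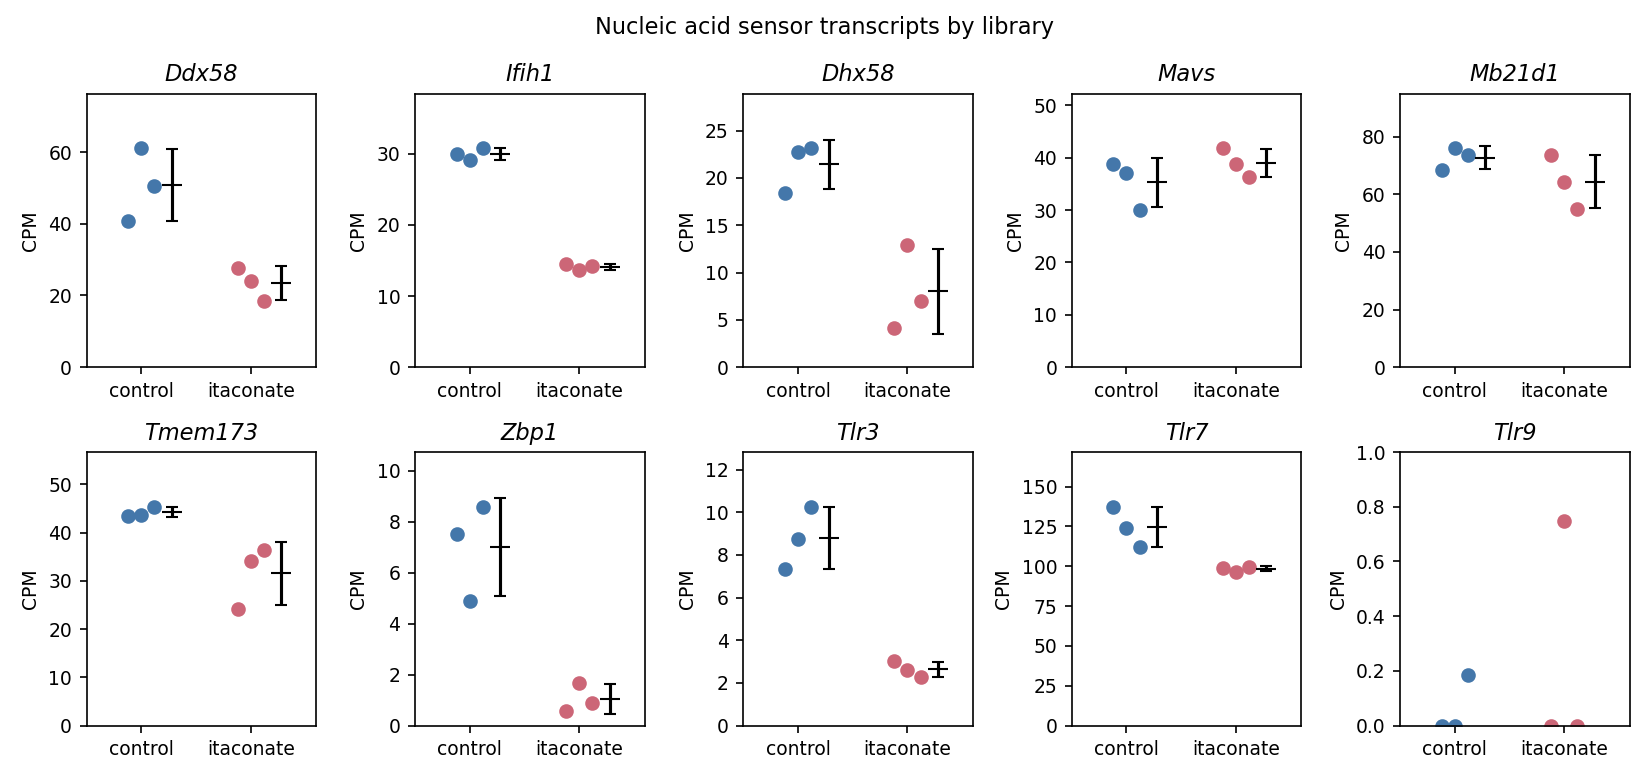
Level of each of the 10 sensor transcripts in CPM (vertical axes, each starting at 0) in the 3 control and 3 itaconate libraries. Points are libraries and bars are the mean and SD, left out for the untested Tlr9. The groups do not overlap for Ddx58, Ifih1, Dhx58, Tmem173, Zbp1, Tlr3 and Tlr7, and they overlap for Mavs and Mb21d1.

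The RIG-I-like receptor genes Ddx58, Ifih1 and Dhx58 were each called lower. Ddx58 encodes RIG-I, which binds short double-stranded RNA with a 5′ triphosphate, and lies on chromosome 4 from 40203777 to 40239825 (GRCm38, the assembly that mm10 names). Its level was 40.9, 61.1 and 50.6 CPM in control replicates 1 to 3 and 27.7, 24.1 and 18.4 CPM in itaconate replicates 1 to 3. The lowest control library was thus well above the highest itaconate library, although the controls themselves spread by 19.9% (coefficient of variation). The log2 fold change was -1.12 ± 0.19 (SE, edgeR adjusted p = 5.37e-06).

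Ifih1, on chromosome 2 from 62595618 to 62646255, encodes MDA5, the receptor of long double-stranded RNA. It had 30.0, 29.1 and 30.8 CPM in the control libraries and 14.5, 13.6 and 14.2 CPM in the itaconate libraries. Replicates lay close together in both groups, with coefficients of variation of 2.86% and 3.07%. The log2 fold change of Ifih1 was -1.08 ± 0.22 (adjusted p = 0.000128), a mean level of 47.1% of control, beside 46% for Ddx58.

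Dhx58, on chromosome 11 from 100694884 to 100704271, encodes LGP2, the member of the family that lacks signalling domains and modulates its relatives. The control libraries held 18.4, 22.7 and 23.1 CPM and the itaconate libraries 4.14, 12.9 and 6.995 CPM. All itaconate values were below all control values, but they ranged widely among themselves (coefficient of variation 55.7%), with replicate 2 the highest and replicate 1 the lowest. Its log2 fold change of -1.42 ± 0.30 (edgeR adjusted p = 0.000277) became -1.93 without itaconate replicate 2 and -1.11 without itaconate replicate 1. Its exons overlap the antisense transcript Dhx58os over 141 bases, and Dhx58os had 0 counts in all libraries.

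Mavs, on chromosome 2 from 131234063 to 131248025, encodes the adaptor through which RIG-I and MDA5 signal. It was at 38.8, 37.0 and 30.0 CPM in control and 41.8, 38.9 and 36.4 CPM in itaconate libraries, so the groups overlapped. Its log2 fold change was 0.14 ± 0.17 (edgeR adjusted p = 0.629), with a 95% confidence interval from -0.21 to 0.49. That interval does not reach the changes of the 3 receptors, whose intervals run from -1.50 to -0.75 for Ddx58, from -1.52 to -0.65 for Ifih1 and from -2.02 to -0.81 for Dhx58.

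**Figure D2:**
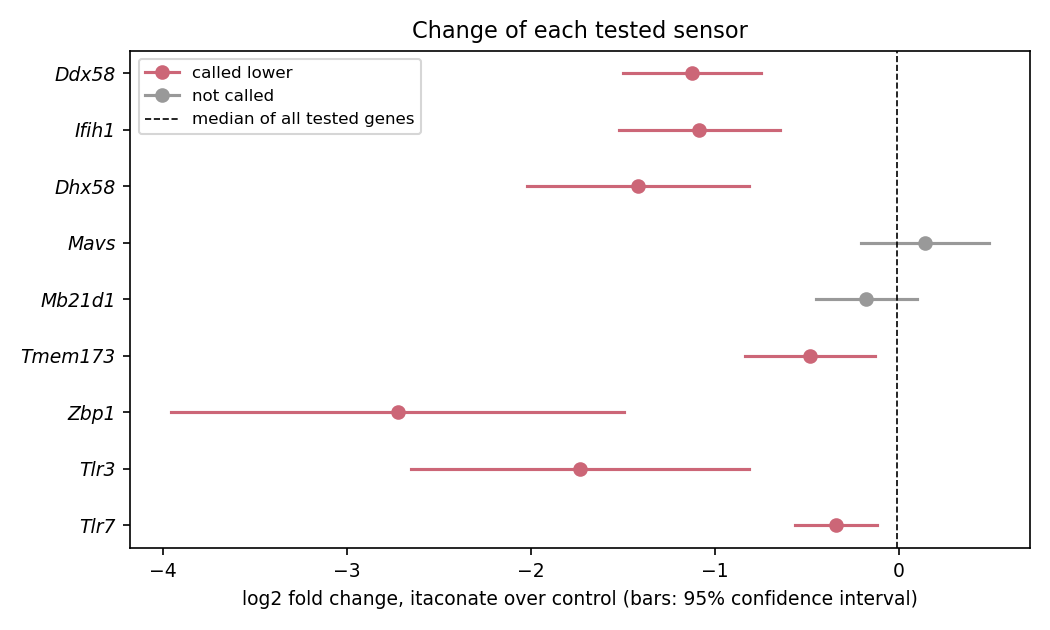
Log2 fold change of itaconate over control (horizontal axis) for the 9 tested sensors, with 95% confidence intervals. The dashed line is the median of all tested genes (-0.01). The intervals of Mavs and Mb21d1 cross it and those of the other sensors lie below it.

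The promoter windows of 6 of the 10 genes were found in RefSeq (GRCm38.p6), namely those of Ddx58, Ifih1, Mavs, Mb21d1, Tlr3 and Tlr9. Windows for Dhx58, Zbp1, Tlr7 and Tmem173 were not used here. Each window runs from 250 bases before to 50 bases from the transcript start. They were searched on both strands for the core of the interferon-stimulated response element, GAAA and GAAA with any 2 bases between them, the site of interferon-activated transcription factors. Of 32851 windows of this length, 3.44% hold it. Among the 6 it was found in Ddx58, beginning 2 bases after the start base, and in Ifih1, beginning 32 bases after it. It was not found in the other 4. The Tlr3 window, chr8:45410331-45410630 on the minus strand, lies inside the gene, which RefSeq ends at 45411075. Bases around that outer end of Tlr3 were therefore not searched. The core of the antioxidant response element, TGACNNNGC, which NRF2 binds, is in 12.4% of all windows and was found in Mavs (73 bases before the start) and Tlr9 (77 before). The gamma-activated site core, TTCNNNGAA, is in 8.30% of all windows and in none of the 6. None of these motifs overlaps another in these windows. A match is a stretch of letters, not a measured binding site, and no match says only that the letters are not in the window. The sequences below are shown because they carry the matches in the RIG-I-like route, 5′ to 3′ on the gene's strand, with the matched letters in capitals. Ddx58 is chr4:40239796-40240075 on the minus strand (250 bases before the start and the first 30 transcribed), Ifih1 is the 30 bases around its match, chr2:62646206-62646235 on the minus strand, and Mavs is the 250 bases before the start, chr2:131233813-131234062 on the plus strand. In Ddx58 and Ifih1 the capitals mark the interferon-stimulated element core, which is on the opposite strand in Ddx58, and in Mavs the antioxidant element core.
Ddx58: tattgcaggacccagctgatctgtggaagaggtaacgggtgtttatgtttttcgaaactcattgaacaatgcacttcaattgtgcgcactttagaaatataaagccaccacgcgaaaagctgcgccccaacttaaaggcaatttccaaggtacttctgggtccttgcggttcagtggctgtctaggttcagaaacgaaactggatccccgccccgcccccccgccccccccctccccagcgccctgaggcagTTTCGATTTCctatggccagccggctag
Ifih1: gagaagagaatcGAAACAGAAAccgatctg
Mavs: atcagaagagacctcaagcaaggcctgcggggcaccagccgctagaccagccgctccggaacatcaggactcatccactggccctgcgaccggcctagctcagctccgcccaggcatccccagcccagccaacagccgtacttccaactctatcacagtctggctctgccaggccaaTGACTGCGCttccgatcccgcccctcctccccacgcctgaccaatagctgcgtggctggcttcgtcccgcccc

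Of the cytosolic DNA sensing pair, Tmem173 was called lower and Mb21d1 was not called. Mb21d1 (also named Cgas), on chromosome 9 from 78430518 to 78443237, encodes the enzyme cGAS. It had 68.3, 76.0 and 73.7 CPM in control and 73.6, 64.5 and 55.1 CPM in itaconate libraries. Itaconate replicate 1 was level with the controls and replicate 3 was the lowest of all. The log2 fold change was -0.18 ± 0.14 (edgeR adjusted p = 0.401), with a 95% confidence interval from -0.45 to 0.10. Its exons overlap Gm8093 on the opposite strand over 201 bases. Tmem173 (also named Sting1), on chromosome 18 from 35733678 to 35740554, encodes the adaptor STING, which receives the cGAS product.

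Tmem173 was at 43.5, 43.7 and 45.3 CPM in control and 24.1, 34.2 and 36.4 CPM in itaconate libraries. The groups did not overlap, but the itaconate libraries spread by 20.7% (coefficient of variation) against 2.27% in control. It was called lower by a small margin, with a log2 fold change of -0.48 ± 0.18 (edgeR adjusted p = 0.0411). The call was lost with DESeq2 (adjusted p = 0.101), without a filter on low counts (0.0551), and without control replicate 1 (0.0813), control replicate 2 (0.0899), control replicate 3 (0.104), itaconate replicate 1 (0.249) or itaconate replicate 2 (0.0544). Without itaconate replicate 1, its lowest library, the log2 fold change was -0.32.

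Zbp1, on chromosome 2 from 173206612 to 173218959, encodes a sensor that can start necroptosis through RIPK3. Its counts were low, at 45, 30 and 46 reads in control and 3, 9 and 5 reads in itaconate libraries, or 7.53, 4.87 and 8.58 against 0.565, 1.68 and 0.874 CPM. The lowest control library was above the highest itaconate library, and 1 itaconate library was at the floor of 3 counts (0.487 to 0.565 CPM over the libraries). The log2 fold change was -2.72 ± 0.61 (edgeR adjusted p = 0.000609), and only 0.658% of tested genes had a lower one. Its 95% confidence interval, from -3.95 to -1.49, was the widest of the 9. Ripk3, its partner kinase, and Mlkl, the pore-forming effector, both named outside the naming rule after their values were seen, were not called (log2 fold changes 0.25 and -0.31).

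The endosomal receptors differed from each other. Tlr3, on chromosome 8 from 45395665 to 45411075, encodes the receptor of double-stranded RNA. Its control libraries had 7.37, 8.77 and 10.3 CPM and its itaconate libraries 3.01, 2.62 and 2.27 CPM, with every itaconate library under the lowest control. Tlr3 had a log2 fold change of -1.73 ± 0.46 (adjusted p = 0.00355) and a mean level of 29.9% of control. Its exons overlap Gm45542 on the opposite strand over 117 bases.

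Tlr7, on chromosome X from 167303380 to 167330574, encodes a receptor of single-stranded RNA. It was at 137.4, 124.1 and 112.1 CPM in control and 99.2, 96.6 and 99.3 CPM in itaconate libraries. The highest itaconate library was just below the lowest control, control replicate 3. The log2 fold change was -0.34 ± 0.11 (edgeR adjusted p = 0.0213), and the call was lost without control replicate 1 (adjusted p = 0.142), control replicate 2 (0.0596) or itaconate replicate 2 (0.0765).

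Tlr9, on chromosome 9 from 106222598 to 106226876, encodes the receptor of unmethylated CpG DNA. It had 1 count over the control group and 4 over the itaconate group, all 4 in itaconate replicate 2, with 0 counts in the other 4 libraries. A count of 0 allows up to 3 counts, so no fold is given and no difference was detectable at this depth. These counts are reads assigned to the symbol near an annotated 3′ end, and whether its transcripts end elsewhere in this line was not tested.

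**Figure D3:**
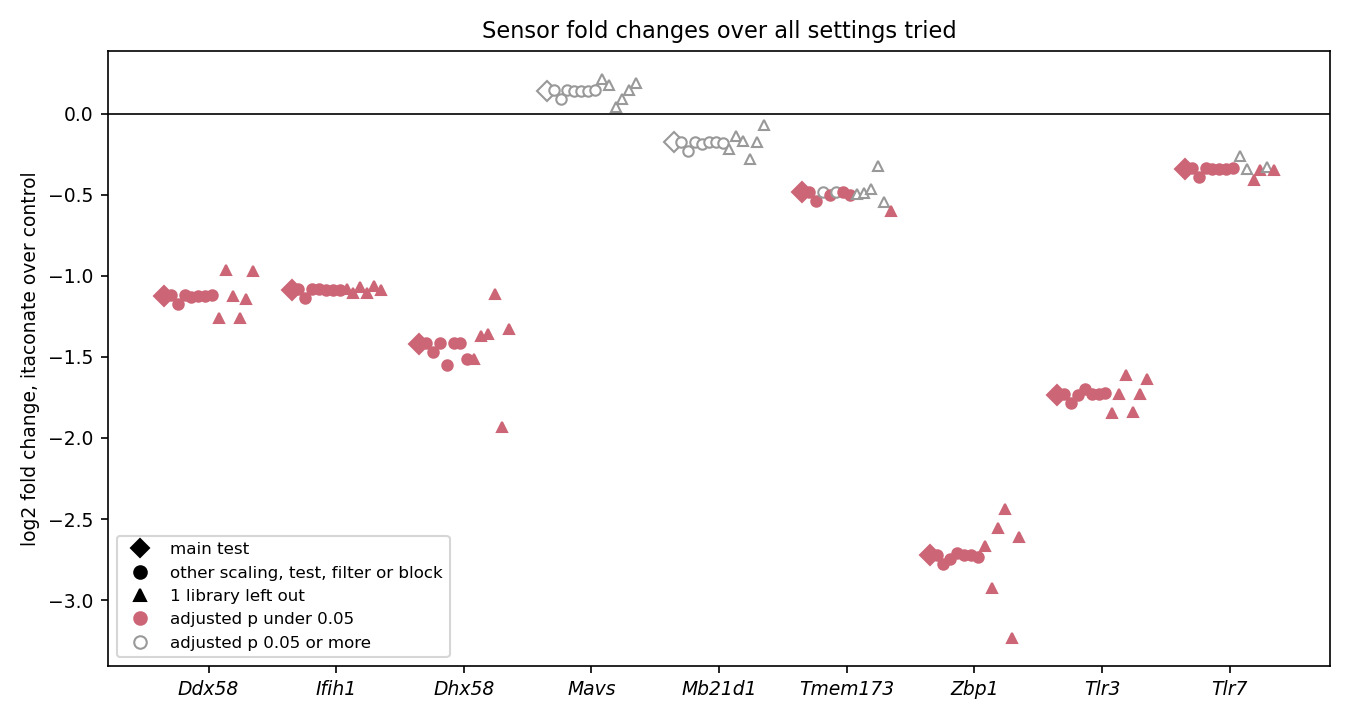
Log2 fold change of each tested sensor (vertical axis) under the main test (diamonds), 7 other scalings, tests, filters or the replicate block (circles) and with each of the 6 libraries left out (triangles). Filled red marks have an adjusted p under 0.05. Ddx58, Ifih1, Dhx58, Zbp1 and Tlr3 are filled throughout, Tmem173 and Tlr7 are not, and Mavs and Mb21d1 are open throughout.

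Ratios of counts within a library were compared next, since they do not depend on how libraries are scaled. They use the same counts as the fold changes above and so are not separate evidence. Of 11 ratios, 9 were tested, as both with Tlr9 had too few counts. The ratio of Ddx58 to Mavs was 1.05, 1.65 and 1.68 in control and 0.663, 0.621 and 0.506 in itaconate libraries. For Ifih1 to Mavs it was 0.772, 0.786 and 1.02 against 0.348, 0.353 and 0.391. Dhx58 to Mavs gave 0.475, 0.615 and 0.771 against 0.101, 0.333 and 0.194. In each of the 3, all itaconate ratios were below all control ratios, with differences in mean log2 ratio of -1.27, -1.23 and -1.70. All 3 share the Mavs counts, and their receptors were already called lower, so they are not 3 independent results. How often ratios of other gene pairs separate in this way was not computed. An exact permutation test, two-sided, gave p = 0.1 for each, which is the lowest possible with 3 libraries a group (adjusted p = 0.15 over the 9 ratios). A ratio of counts between genes also reflects how well each 3′ end is primed and annotated, so its change between groups is read here and not its size.

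Among the RIG-I-like receptors themselves no such separation was seen. The log2 ratio of Ifih1 to Ddx58 differed by 0.04 between groups (exact permutation p = 0.9) and that of Dhx58 to Ddx58 by -0.43 (exact permutation p = 0.7), the latter turning to 0.09 without itaconate replicate 1. The former turned to -0.13 without control replicate 2 and to -0.13 without itaconate replicate 3. Mb21d1 to Tmem173 differed by 0.32 with overlapping groups (exact permutation p = 0.4), a difference of 0.04 without itaconate replicate 1 and 0.54 without itaconate replicate 3. The ratio of Zbp1 to Tmem173 was lower in every itaconate library than in every control library, with a log2 difference of -2.22. The same held for Tlr3 to Tlr7, with -1.37 (exact permutation p = 0.1 for each, adjusted p = 0.15). Tlr7 relative to Unc93b1, the chaperone that carries endosomal Toll-like receptors out of the endoplasmic reticulum, differed by -0.36 (exact permutation p = 0.1, adjusted p = 0.15), with ratios of 0.278, 0.233 and 0.210 in control and 0.201, 0.187 and 0.173 in itaconate libraries.

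**Figure D4:**
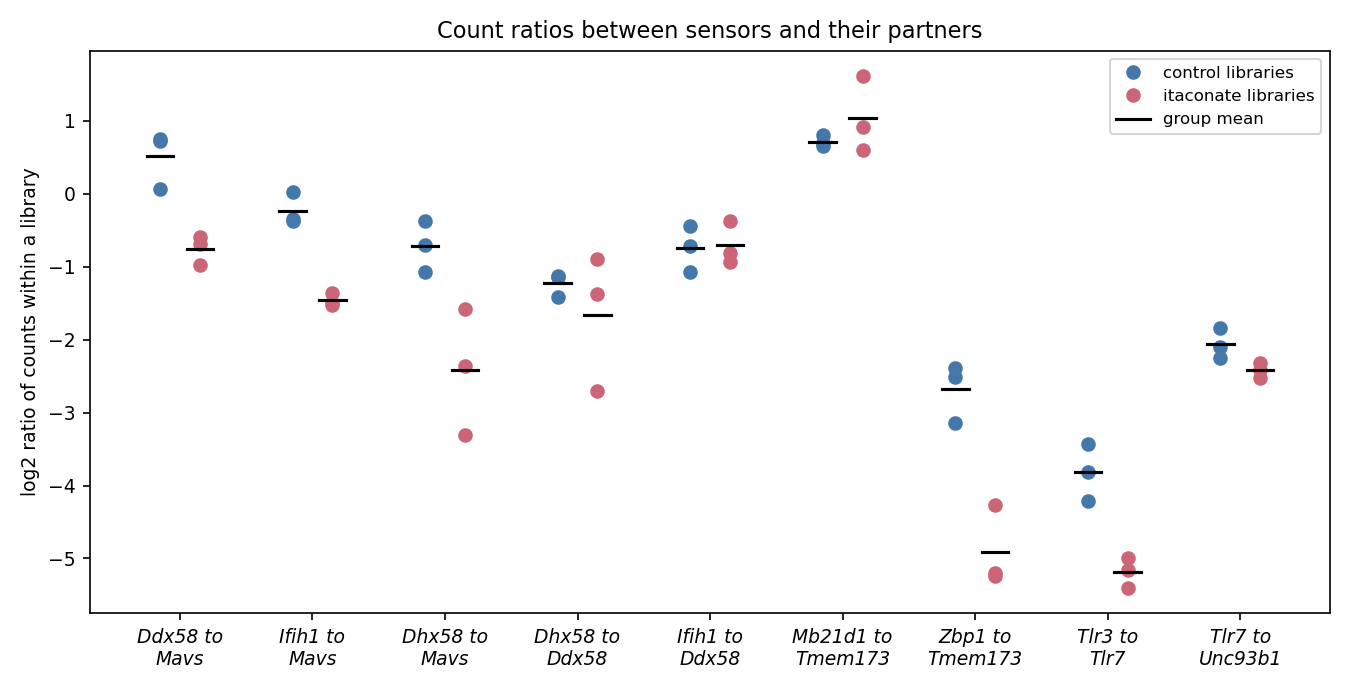
Log2 ratio of counts within each library (vertical axis) for the 9 tested gene pairs, with control libraries in blue, itaconate libraries in red and group means as black lines. Receptor to Mavs ratios, Zbp1 to Tmem173, Tlr3 to Tlr7 and Tlr7 to Unc93b1 do not overlap between groups, and the other 3 pairs do.

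Genes around the sensors were taken from lists by role. The counts of each list below stand against 11.2% of all tested genes called lower and 10.7% called higher. Of 21 adaptors and kinases below the sensors, 3 were called lower, 1 higher and 17 not, with a median log2 fold change of -0.04. Myd88, the adaptor of Toll-like receptors 7 and 9, fell from 86.4 ± 8.13 to 57.2 ± 5.40 CPM (SD, n = 3), or -0.59 ± 0.13 on the log2 scale (edgeR adjusted p = 0.000575). Ticam1, the adaptor TRIF used by Toll-like receptor 3, was called higher (0.47, adjusted p = 0.0356), a call lost on leaving out any 1 library other than itaconate replicate 1 (adjusted p from 0.0546 to 0.13) and with DESeq2 (0.0624), library totals (0.0665) or no filter (0.0577). The kinase genes Ikbke (-0.94) and Ikbkb (-0.39) were called lower although their groups overlapped. Ikbke was lost without control replicate 1 (0.273), control replicate 3 (0.116), itaconate replicate 1 (0.14) or itaconate replicate 2 (0.0683), and Ikbkb on omission of control replicate 2 (0.422), of itaconate replicate 1 (0.111) or of itaconate replicate 2 (0.194). DESeq2, limma-voom and the replicate block each left only 1 of the 3 called lower. Irak1 (0.20) and Tbkbp1 (0.12) were the most abundant members not called.

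Of 7 transcription factors below the sensors, 3 fell, 1 rose and 3 were not called (median -0.39). Irf7, which amplifies type I interferon, had 90.9 ± 10.5 CPM without and 19.1 ± 1.64 CPM with itaconate (SD, n = 3; log2 fold change -2.25 ± 0.16, edgeR adjusted p = 1.66e-16). Irf5, which acts below endosomal receptors, rose by 0.53 ± 0.11 (adjusted p = 0.00018), and its exons overlap Tnpo3 on the opposite strand. Rela, an NF-kB subunit, fell (-0.50, adjusted p = 0.00428). Jun was called lower (-0.39), a call lost with DESeq2 (0.0633) and without control replicate 2 (0.0888), control replicate 3 (0.0757), itaconate replicate 1 (0.0617) or itaconate replicate 2 (0.201). Irf3, the constitutive factor activated by MAVS, STING and TRIF, was at 39.2 ± 4.44 and 36.7 ± 2.80 CPM (SD, n = 3; -0.09, adjusted p = 0.762), and Atf2 was not called either (-0.22).

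Factors that fold, move or process endosomal Toll-like receptors had 4 of 12 lower, 2 higher and 6 not called (median -0.16). Slc15a4, a lysosomal transporter needed for Toll-like receptor 7 and 9 signalling, fell (log2 fold change -0.64 ± 0.11, adjusted p = 5.37e-06). Cd14, a co-receptor, fell (-0.96), and the cathepsin genes Ctsl (0.54) and Ctsb (0.33) rose. Exons of Slc15a4, Ctsl and Ctsb overlap genes on the opposite strand, and those of Ctsl also overlap Gm49230 on the same strand over 395 bases. Unc93b1 was at 520.2 ± 22.4 and 528.6 ± 41.0 CPM (SD, n = 3; 0.02, adjusted p = 0.88), and Ctss was not called (-0.16), though it was called lower with library totals (0.0111), DESeq2 (0.013) and limma-voom (0.0388). The number called lower was 2 without control replicate 2 and 2 without itaconate replicate 1.

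Of 20 tested regulators of RIG-I-like receptors and STING, 4 fell, 1 rose and 15 were not called (median -0.20). Usp18, a protease that removes ISG15, fell (log2 fold change -0.75 ± 0.17, adjusted p = 0.000597), as did Ifi35 (-0.98 ± 0.21, adjusted p = 0.000274), and exons of both overlap genes on the opposite strand. Herc6, a ligase that attaches ISG15, was at -1.10. It shares 24.5% of its 3′-end stretches with Gm45193, and their exons overlap on the same strand over 1269 of 4767 bases of Herc6. Tnfaip3, the NF-kB inhibitor A20, was at -2.28 with overlapping groups. Tnfaip3 had 11, 31 and 27 counts in control and 10, 1 and 2 in itaconate libraries, the last 2 under the floor of 3 counts, and its log2 fold change was -3.77 without itaconate replicate 1. Both calls were lost with DESeq2 (adjusted p = 0.0614 and 0.0654). Leaving out control replicate 2 (adjusted p = 0.18 and 0.156) or itaconate replicate 3 (0.109 and 0.117) also ended both, and control replicate 3 (0.154) or itaconate replicate 2 (0.16) that of Tnfaip3, as did the replicate block (0.0631). Trim25, the ubiquitin ligase that acts on RIG-I, was not called, at 330.7 ± 11.4 and 350.9 ± 22.7 CPM (SD, n = 3; 0.09), nor was Ywhae (-0.15), which was called lower with library totals (0.0499).

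Enzymes that remove nucleic acid ligands went in both directions, with 3 of 14 lower, 2 higher and 9 not called (median -0.05). Trex1, the exonuclease that clears cytosolic DNA, fell (log2 fold change -1.01 ± 0.14, adjusted p = 5.22e-08), and so did Adar, which edits double-stranded RNA (-0.67 ± 0.15, adjusted p = 0.000425). The lysosomal nuclease genes Pld3 (0.69 ± 0.09) and Rnaset2a (0.33 ± 0.09) rose, the latter not without control replicate 1 (adjusted p = 0.0707). Pld4 (-0.01) and Banf1 (-0.19) were not called. All of the 50-base stretches at the 3′ end of Trex1 also lie in Atrip transcripts and 76.3% of those of Rnaset2a in Rnaset2b. Exons of Rnaset2a overlap Gm49673 on the same strand over 909 of 3343 bases, and those of Adar overlap Chrnb2 on the opposite strand. The counts of Trex1, Rnaset2a and Adar are thus uncertain. For the sensors themselves the share of 3′-end stretches found in other genes was 0, except 0.765% for Ddx58.

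Among 24 tested other nucleic acid sensors, 9 fell, 1 rose and 14 were not called (median -0.20). Mndal, of the interferon-inducible p200 family, went from 541.4 ± 15.5 to 192.9 ± 24.0 CPM (SD, n = 3; log2 fold change -1.49 ± 0.09, edgeR adjusted p = 4.42e-19), but shares 25.9% of its 3′ stretches with relatives. The RNA helicase genes Dhx9 (-1.25 ± 0.14) and Ddx3x (-0.74 ± 0.09) fell, as did Hnrnpa2b1 (-0.75 ± 0.09), all with roles in RNA processing outside sensing. Ddx21 (-0.07) and Dhx15 (-0.21) were not called, the latter called lower with library totals (0.0392). Tlr8, the relative of Tlr7, was named after its values were seen and fell from 16.5 ± 2.35 to 8.79 ± 0.34 CPM (SD, n = 3, log2 fold change -0.91 ± 0.29, adjusted p = 0.0177). Tlr13 and Dhx36 were also named after their values were seen. Tlr13 was at 79.31 ± 12.84 and 71.35 ± 5.07 CPM (SD, n = 3), with overlapping groups, and was not called (-0.15, adjusted p = 0.463). Dhx36 was the 1 gene called higher (0.36 ± 0.12, adjusted p = 0.0266), from 80.61 ± 10.99 to 103.2 ± 5.06 CPM (SD, n = 3).

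Of 8 interferon and cytokine products of these routes, 2 could be tested and both fell, Tnf with a log2 fold change of -1.57 ± 0.20 (adjusted p = 1.34e-08) and the chemokine gene Ccl5 with -1.20 ± 0.37 (adjusted p = 0.0152). The median of the 2 was -1.38, and the number higher was 0, also at an unadjusted p under 0.05. The Ccl5 call was lost without control replicate 2 (0.111) or itaconate replicate 3 (0.066). Ifnb1, Ifna4, Ifnl2 and Il12b had 0 counts in all 6 libraries, where 3 counts are 0.487 to 0.565 CPM. Cxcl10 had 30, 7 and 2 counts in control and 0 in each itaconate library, and Il6 had 0, 4 and 5 against 0 in each. The lists above and the sensors share the same 6 libraries, so their counts are not independent of each other.

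**Figure D5:**
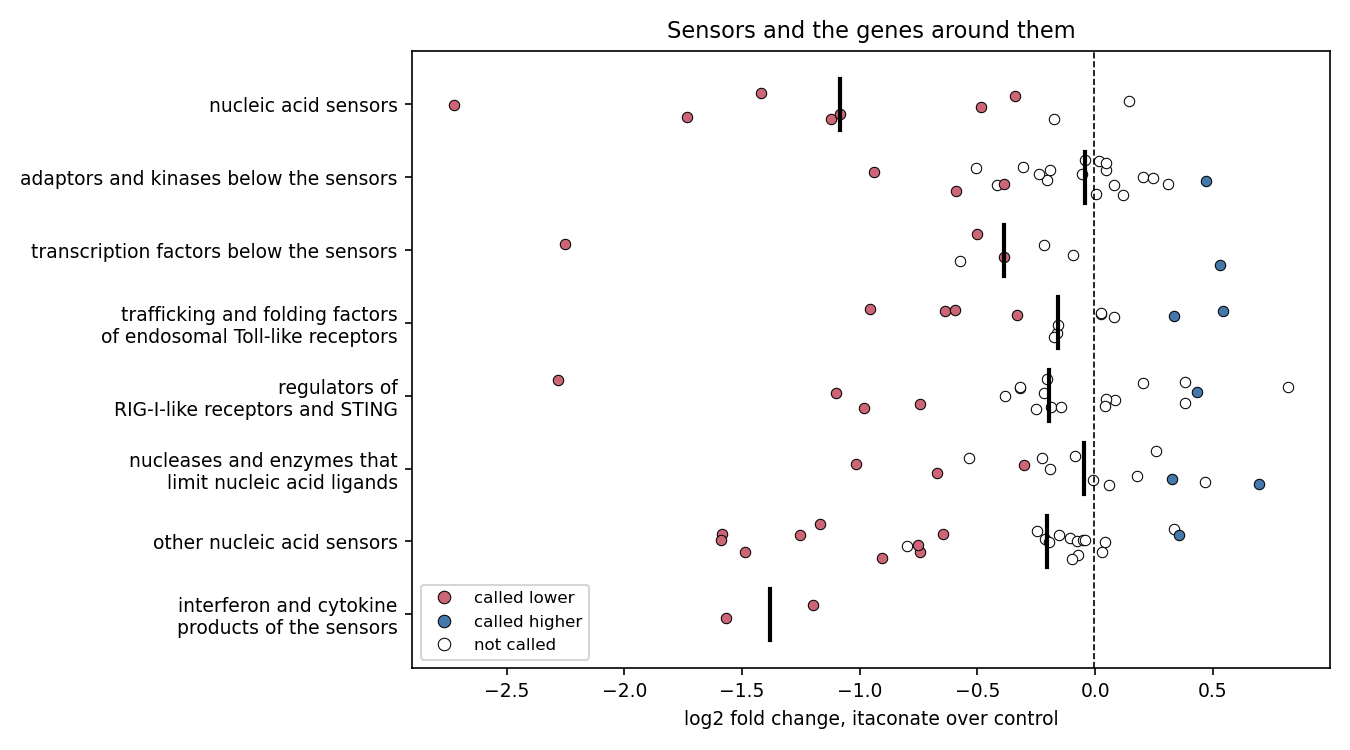
Log2 fold change of every tested gene (horizontal axis) in the sensor group and 7 lists of genes around them. Red points were called lower, blue higher and white not called. Black bars are list medians and the dashed line the median of all tested genes (-0.01). The sensors have a median of -1.08 and the adaptors and kinases one of -0.04. The lowest median, -1.38, is that of the interferon and cytokine products, with 2 tested genes.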

How the data were processed

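Per the labels' protocols, TRIzol was used for RNA extraction and the Lexogen QuantSeq FWD kit, which reads 3′ ends, for the libraries. The deposited values are raw, whole-number read counts for each gene symbol, as the authors left them before any scaling. STAR 2.7.5a, HTSeq 0.6.1, edgeR and the build mm10 are named in the submitters' processing notes. No source used here gives the strand setting, the annotation or the handling of multiply mapped reads, so reads of overlapping antisense genes cannot be told apart. Groups were taken from the treatment label. All 6 count columns were used, with the 6 library names in the header read in order, since the header line holds empty cells before them.

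Genes passing edgeR's filterByExpr defaults (minimum count 10, minimum total 15) were kept, leaving 10636 genes that hold 99.74% of the counts. After TMM scaling, group was the only term of a robust quasi-likelihood fit in edgeR 4.0.16 under R 4.3.3 (two-sided, Benjamini-Hochberg over all tested genes, threshold 0.05). Each SE was derived from the log2 fold change and its F statistic. The floor is 3 counts per library and reflects counting error alone. Reads were not collapsed by molecular identifier in any step named here. The 95% confidence intervals of fold changes were built from the same SE and so include the spread between libraries. Ratios used a pseudocount of 0.5 counts and exact permutation tests. Alternatives were DESeq2 1.42.0, limma-voom (limma 3.58.1), other scalings and filters, a replicate block and leaving out each library.

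The members and gene lists were chosen with earlier results of these data known. Named are all 10 sensors, up to 4 called genes with the smallest adjusted p and up to 2 uncalled genes with the highest mean CPM per list, and every macrophage marker. Exon overlaps and shared 3′ ends (50-base stretches of the last 500 bases) come from GENCODE M21, and gene positions from RefSeq GRCm38.p6. The labels name no batch, so no within-batch value is given.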

Additional observations from a re-analysis of the deposited data

How the results depend on the processing

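Of 117 comparisons of a sensor's fold change with an alternative (9 sensors, 13 settings), 107 kept direction and call, 10 lost the call and 0 reversed. Those 10 were Tmem173 and Tlr7, with values given above. The number of sensors called lower was 5 to 7 over all settings, and 0 were called higher. Library totals in place of TMM moved the median of all tested genes to -0.06 and gave 1429 lower and 935 higher genes, 60.4% lower against 51.2%.

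Same-numbered libraries did not deviate together (correlations of -0.013, 0.017 and 0.038), so the replicate numbers were not taken as pairs. With the replicate block 7 sensors were called lower, 1160 genes lower and 1087 higher, 3 regulators lower in place of 4 (Tnfaip3 lost), and 1 adaptor or kinase lower in place of 3. That list also had 1 lower with DESeq2 and 1 with limma-voom, and 1 to 3 without single libraries. Its 1 higher gene became 0 with library totals, DESeq2 or no filter, and 0 to 1 without single libraries. Regulators had 2 lower with DESeq2, 2 to 4 without single libraries, and 0 higher with library totals or DESeq2 and 0 to 2 without single libraries. Other sensors had 0 higher with library totals or DESeq2 and 0 to 2 without single libraries. They had 10 lower with library totals and 7 to 9 without single libraries. Transcription factors had 2 lower with DESeq2, 4 with library totals and 2 to 4 without single libraries. Without single libraries the trafficking list had 2 to 4 lower, nucleases 1 to 3 higher and products 1 to 2 lower. The log2 ratio differences ran from -0.8161 to 0.0913 for Dhx58 to Ddx58 and from -0.1299 to 0.1854 for Ifih1 to Ddx58. Uncalled genes that changed sign were Unc93b1 (-0.03 with library totals, -0.0384 to 0.069 without single libraries), Pld4 (-0.0847 to 0.0614 without single libraries) and Ddx21 (-0.1397 to 0.0396 without single libraries). The cause of these changes was not tested. Depth limits Zbp1, Tlr3 and Tlr9 most.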

Other observations

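Of the 5 tested genes of the p200 family (interferon-inducible DNA-binding proteins) in the list of other sensors, 4 were called lower, Mndal (above) among them, and 1 was not called. Over all tested genes 11.2% were called lower. The family was not one of the lists set by role. It was set apart, and its other genes were named, after their values were seen, so its share is descriptive only. Ifi203 went from 71.8 ± 2.88 to 32.0 ± 5.69 CPM, Ifi204 from 24.9 ± 4.01 to 8.29 ± 2.34 CPM and Mnda from 9.75 ± 0.61 to 3.22 ± 0.84 CPM (SD, n = 3). These 3 had log2 fold changes of -1.17, -1.59 and -1.59 (edgeR adjusted p = 4.73e-08, 6.9e-06 and 0.00378). Aim2, which senses cytosolic DNA in an inflammasome, lay above the controls in every itaconate library (65.5 ± 10.6 and 82.5 ± 8.27 CPM) but was not called (0.33, adjusted p = 0.0701). These genes are close relatives, and how reads that fit several of them were counted is not given in the sources used here.

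Isg15, an abundant product of the interferon response in many cells, had 2 counts in control replicate 3 and 0 in the other 5 libraries, while Usp18, which removes it from proteins, had 307 to 314 counts in control and 141 to 197 in itaconate libraries. Whether this reflects the cells or the assignment of reads was not tested. Eif2ak2, the RNA-activated kinase PKR, also named after its values were seen, fell from 41.9 ± 9.20 to 26.7 ± 6.48 CPM (SD, n = 3; log2 fold change -0.65, edgeR adjusted p = 0.0115).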
